A study of Homo sapiens with 9 samples.

Results

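The snoRNA and microRNA host genes are long non-coding genes whose RNA carries small RNAs within its introns or exons. They were taken by symbol: SNHG and a number or GAS5 for the snoRNA hosts, and MIR followed by a name ending in HG for the microRNA hosts (MIR205HG was left out). The rule found 83 of the 57733 genes in the tables, 25 of them snoRNA hosts and 58 microRNA hosts. The libraries came from PANC-1, an established human pancreatic ductal carcinoma line, as 2 CRISPR/Cas9 knockout clones of the histone H3K27 demethylase gene KDM6A, labelled KO C22 and KO C28, and a control line labelled WT. Each knockout is 1 clone, so that a difference between a clone and WT cannot be told apart from a difference between single cell clones. BruUV-seq gave 1 library of each line, and Bru-seq gave 2. All 9 libraries hold RNA that took up 2 mM bromouridine during 30 min, with a chase of 0 h, and the BruUV-seq cells also received 100 J/m2 of UV light. The labels give no word on separate cultures, so the spread that the p-values rest on is that of these libraries and may be technical.

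Small nucleolar RNAs guide chemical modification of ribosomal RNA, and most human snoRNAs are cut out of introns. The host transcripts that remain code for no protein, are often spliced, and in several cases, GAS5 among them, start with the pyrimidine tract typical of ribosomal protein mRNAs and are degraded by nonsense-mediated decay when translated. MicroRNA hosts carry hairpins that Drosha and DGCR8 cut from the nascent transcript and that Dicer trims to mature microRNAs, which repress mRNAs through their seed. Bru-seq measures newly made RNA along the whole gene, so it reads the transcription of a host rather than the amount of mature small RNA. UV light stalls polymerases at lesions, so in BruUV-seq the reads gather near the starts of genes.

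A hairpin of the RefSeq set used lay on the same strand within 43 of the 58 microRNA hosts, and 20 of the 23 microRNA hosts read at more than 2 times the level outside genes in at least 8 libraries held one. Hosts counted without one may still carry a microRNA. MIR3936 lies within MIR3936HG by the deposited gene coordinates, and the set held no mature sequences of MIR22 and MIR155. The mature sequences below, from RefSeq on GRCh38.p14, belong to the hosts with the highest levels, to hosts that share a seed, and to the hosts with the lowest p-values between lines. Capitals mark the seed, bases 2 to 8. Among the hosts read at that level, the let-7 seed GAGGUAG was shared by mature microRNAs of 3, MIRLET7BHG, MIR100HG and MIR4500HG, and the seed ACAUUCA by those of MIR181A1HG and MIR181A2HG. MIR4500HG and MIR181A2HG, with mean levels of 0.398 and 1.26 scaled CPM per kb over Bru-seq, were each above 2 times the level outside genes in 8 libraries. Within MIR17HG, which carries the cluster from miR-17 to miR-92a, pairs of microRNAs shared the seeds AAAGUGC and GUGCAAA.
miR-31-5p of MIR31HG, chr9:21512158-21512178, minus strand: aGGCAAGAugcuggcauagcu
miR-221-3p of MIR222HG, chrX:45746180-45746202, minus strand: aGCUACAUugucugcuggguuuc
miR-222-3p of MIR222HG, chrX:45747036-45747056, minus strand: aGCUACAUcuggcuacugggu
miR-17-5p of MIR17HG, chr13:91350618-91350640, plus strand: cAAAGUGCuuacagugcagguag
miR-20a-5p of MIR17HG, chr13:91351072-91351094, plus strand: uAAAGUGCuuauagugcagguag
miR-19a-3p of MIR17HG, chr13:91350939-91350961, plus strand: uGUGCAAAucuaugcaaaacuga
miR-19b-3p of MIR17HG, chr13:91351245-91351267, plus strand: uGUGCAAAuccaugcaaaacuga
let-7b-5p of MIRLET7BHG, chr22:46113691-46113712, plus strand: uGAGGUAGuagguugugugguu
let-7a-5p of MIR100HG, chr11:122146568-122146589, minus strand: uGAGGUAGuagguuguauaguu
miR-4500 of MIR4500HG, chr13:87618671-87618687, minus strand: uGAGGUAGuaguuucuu
miR-181a-5p of MIR181A1HG, chr1:198859108-198859130, minus strand: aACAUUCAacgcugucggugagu
miR-181b-5p of MIR181A1HG, chr1:198858925-198858947, minus strand: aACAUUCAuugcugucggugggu
miR-146a-5p of MIR3142HG, chr5:160485372-160485393, plus strand: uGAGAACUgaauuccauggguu
miR-193b-3p of MIR193BHG, chr16:14304017-14304038, plus strand: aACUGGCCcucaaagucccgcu
miR-365a-3p of MIR193BHG, chr16:14309340-14309361, plus strand: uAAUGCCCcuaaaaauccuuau
miR-137-3p of MIR137HG, chr1:98046091-98046113, minus strand: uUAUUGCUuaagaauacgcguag

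The libraries held 5.64 M to 31.1 M estimated reads in genes (M stands for counts in units of 10 to the power 6), and the host genes took 0.272% to 0.591% of them. Bru-seq KO C28 replicate 2 stood apart. It was the shallowest library, 46.5% of its reads fell outside genes, against 9.93% to 20.01% in the other 8, and its level outside genes was 0.133 scaled CPM per kb (CPM being counts over library size, here scaled with edgeR's TMM factors), against 0.0268 to 0.0542. Where leaving it out moves a KO C28 value by much, the value without it is given too if it was computed. The 5 PANC-1 markers (KRT7, KRT8, KRT18, KRT19 and VIM) were read in all 9 libraries, KRT18 at 24.6 to 671.1 scaled CPM, and each was highest among the Bru-seq libraries in KO C28 replicate 2. With both assays their median log2 fold change was -0.30 in KO C22 against WT (2 of 5 above 0) and 1.78 in KO C28 (5 of 5), or 0.59 (5 of 5) without KO C28 replicate 2. Among markers of other cells, the 4 immune genes reached at most 5.45 (PTPRC) and the 3 endothelial genes 8.18 (CDH5), both in KO C28 replicate 2, the 4 fibroblast genes 38.0 (COL1A1, BruUV-seq KO C22) and the 4 acinar and islet genes 1.61 (GCG), with INS at 0 in all libraries. Their part in the host gene results was not tested. KDM6A itself was read at 286.7 and 426.6 in Bru-seq of KO C22, at 336.9 and 65.9 in KO C28, and at 322.1 and 275.6 in WT, on the same scale. In BruUV-seq it stood at 125.04 in KO C22, 201.2 in KO C28 and 203.5 in WT. Reads summed over the gene body do not check for a small edit.

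The levels below are the scaled CPM divided by the counted length in kb, so that genes and libraries share 1 scale. Of the 83 hosts, 35 were above 2 times the level outside genes in all 9 libraries, 10 in 8, 9 in 1 to 7, and 29 in none, 6 of which had no read in any library. The classes divided unevenly: 21 of 25 snoRNA hosts and 14 of 58 microRNA hosts were above that line in all 9 libraries, and 2 snoRNA hosts and 27 microRNA hosts were above it in none. The 15 hosts with the highest mean RPKM as deposited were also the 15 highest on the scaled level, 12 of them SNHG genes or GAS5 and the others MIR31HG, MIR222HG and MIR17HG.

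Among the snoRNA hosts, SNHG3, SNHG1 and GAS5 led. SNHG1 (chr11:62851988-62855914, minus strand, host of C/D box snoRNAs such as SNORD22 and SNORD26) stood at 44.4 and 9.26 in Bru-seq of KO C22, 49.3 and 12.5 in KO C28, and 58.9 and 20.05 in WT. The first replicate was the higher in every line, and the ranges of the 3 lines overlapped. GAS5 (chr1:173863900-173868882, minus strand, an RNA known to build up when growth stops) stood at 34.1 and 10.1 in KO C22, 37.7 and 7.56 in KO C28, and 53.9 and 32.1 in WT. Its mean was 22.1 ± 16.9 in KO C22, 22.7 ± 21.3 in KO C28 and 43.0 ± 15.4 in WT (SD, n = 2 each), so that the spread within each line was wide beside the gap between them. SNHG3 (chr1:28506351-28509633, plus strand, host of SNORA73) had the highest mean of all hosts, 33.8 over the 6 Bru-seq libraries, rank 83 of the 57733 genes. Its body lies wholly within the gene RCC1 on the same strand, and SNHG4 lies wholly within MATR3. The sources used here do not state how the counting shared reads between such a pair, so the levels of both hosts are uncertain.

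Among the microRNA hosts, MIR31HG (chr9:21455642-21559669, minus strand) gave the most reads of any host, up to 73666 in Bru-seq KO C22 replicate 2. Its level was 18.9 and 31.9 in KO C22, 15.1 and 3.59 in KO C28, and 19.0 and 20.8 in WT. KO C28 lay below WT in both libraries, one of them replicate 2, and KO C22 spanned the WT values. MIR222HG (chrX:45745211-45770274, minus strand, host of miR-221 and miR-222, which repress the cell cycle inhibitor CDKN1B) stood at 13.9 and 27.0 in KO C22, 12.6 and 2.88 in KO C28, and 8.53 and 20.3 in WT. Both clones overlapped WT, while both KO C22 libraries lay above both KO C28 libraries. MIR17HG (chr13:91347820-91354579, plus strand, a known MYC target) stood at 8.96 and 3.47 in KO C22, 11.7 and 0.355 in KO C28, and 13.02 and 5.43 in WT. Each line held a high first and a low second replicate. By mean level the order was SNHG3, SNHG1, GAS5, SNHG6, MIR31HG, SNHG4, MIR222HG, SNHG8, SNHG19, SNHG15, SNHG16, SNHG26, SNHG5, SNHG17 and MIR17HG. Neighbours in it differed by less than the spread between libraries.

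**Figure D1:**
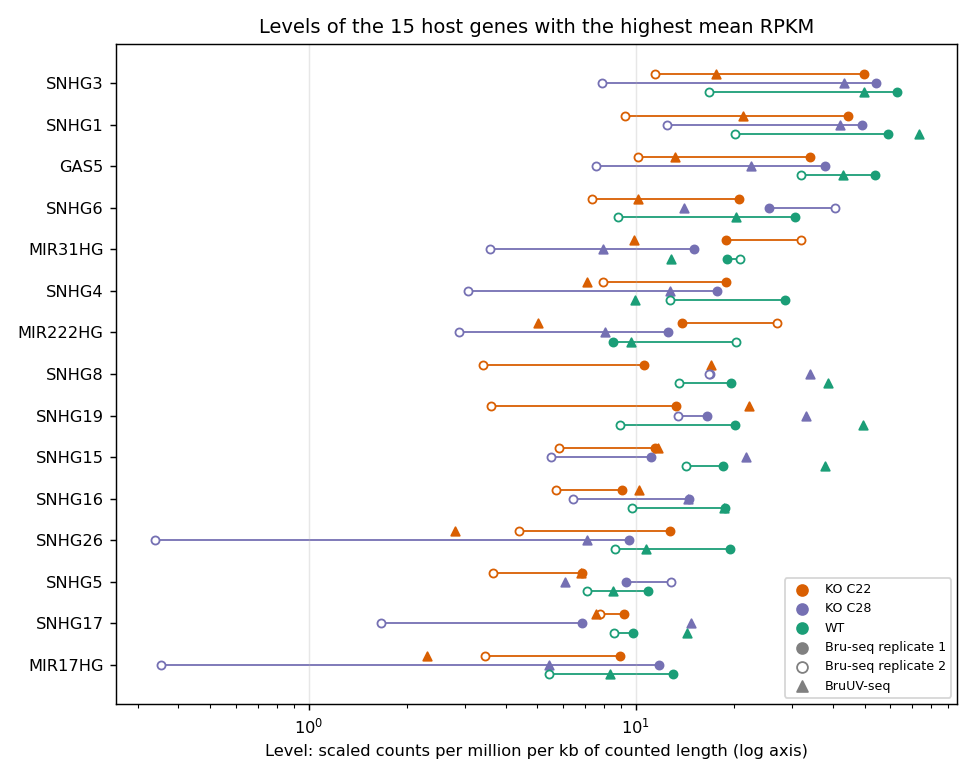
Each row is a host gene and each point a library, with the level in scaled CPM per kb on a log axis; filled circles are Bru-seq replicate 1, open circles replicate 2, triangles BruUV-seq, and lines join the Bru-seq replicates of a line. Within most rows the replicates of a line lie as far apart as the lines do, and the lowest points of SNHG26 and MIR17HG, at 0.338 and 0.355, belong to KO C28 replicate 2.

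The start regions of the snoRNA hosts are shown because their pyrimidine tract is what they are known to share with ribosomal protein genes. RefSeq promoters on GRCh38.p14 were matched for 64 hosts. A run of at least 6 pyrimidines within 2 bases of the start was present in 10 of 21 snoRNA hosts (47.6%) and 9 of 43 microRNA hosts (20.9%), in 44 of 63 cytosolic ribosomal protein genes (69.8%) and in 16.6% of all 27305 promoters. The RefSeq start lay within 100 bases of the deposited gene start for 14 of these 21 snoRNA hosts. Among the 10 with a run it lay 408, 5834, 1110 and 310 bases off in SNHG3, SNHG4, SNHG12 and SNHG28, and SNHG18 had no read. GAS5 had a run of 3 by a RefSeq start 163 bases off. The letters TATA began 35 to 25 bases before the start, on the strand of the gene, in 5 of 21 snoRNA hosts (23.8%), 3 of 43 microRNA hosts (6.98%), 17.5% of ribosomal protein genes and 5.56% of all promoters. The E-box CACGTG, searched on both strands from 250 bases before to 50 bases after the start, was in 1 of 21 snoRNA hosts (4.76%), 0 of 43 microRNA hosts and 7.43% of all promoters. These matches describe letters only. The following stretches of 60 bases run from 30 bases before the RefSeq start, for 5 hosts with a run of 6 or 7 and 2 of the most transcribed hosts without one. Capitals mark the run. In these 7 genes the RefSeq start lay 0 to 53 bases from the start in the tables.
SNHG19, chr16:2155329-2155388, minus strand: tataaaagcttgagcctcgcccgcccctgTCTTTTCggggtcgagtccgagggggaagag
SNHG5, chr6:85678704-85678763, minus strand: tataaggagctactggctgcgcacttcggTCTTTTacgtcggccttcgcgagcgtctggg
SNHG7, chr9:136728155-136728214, minus strand: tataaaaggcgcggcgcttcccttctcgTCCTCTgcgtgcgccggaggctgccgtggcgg
SNHG17, chr20:38435299-38435358, minus strand: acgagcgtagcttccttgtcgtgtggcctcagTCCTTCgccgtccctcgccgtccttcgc
SNHG8, chr4:118278732-118278791, plus strand: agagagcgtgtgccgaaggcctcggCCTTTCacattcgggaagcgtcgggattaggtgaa
SNHG1, chr11:62855856-62855915, minus strand: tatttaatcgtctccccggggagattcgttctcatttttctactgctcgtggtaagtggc
SNHG16, chr17:76557734-76557793, plus strand: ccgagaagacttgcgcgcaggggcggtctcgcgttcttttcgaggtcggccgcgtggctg

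A tested gene on the opposite strand started within 1000 bp of the start of 7 of 23 tested snoRNA hosts (30.4%) and of 3 of 42 tested microRNA hosts (7.14%), against 20.1% of all 22827 genes tested in Bru-seq. The host was the more highly transcribed of the pair for SNHG1 and the amino acid transporter gene SLC3A2 (32.4 against 2.62 as the mean over Bru-seq), GAS5 and ZBTB37 (29.2 against 1.15) and SNHG19 and TRAF7 (12.7 against 0.672). It was the less transcribed for SNHG9 and the ribosomal protein gene RPS2 (0.912 against 11.1) and for SNHG22 and ACAA2 (0.372 against 1.76). The protocol in the labels marks strand only for certain samples without saying here which, so reads of overlapping opposite genes may not be separable.

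Rows of the tables for small RNAs inside a host were read per base and set against the host. The 2 small Cajal body RNAs in SNHG22 stood apart. They were read at 7.57 and 34.9 times the density of the host in Bru-seq of KO C22, 27.6 and 268.0 times in KO C28, and 48.2 and 18.6 times in WT, on 13 to 131 reads a library. In BruUV-seq the ratio was 83.4 in KO C22, 73.6 in KO C28 and 35.6 in WT. The 3 microRNA rows in MIR100HG lay at 2.88 to 12.8 times their host, on 5 to 147 reads. SNORA73B in SNHG3 lay at 1.81 to 2.92 times its host in 5 Bru-seq libraries and at 43.0 times in KO C28 replicate 2, and in BruUV-seq at 11.3 in KO C22, 3.09 in KO C28 and 1.97 in WT. The 6 rows within SNHG1, by contrast, stayed at 0.691 to 1.91 times the host.

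Each clone was compared with WT to see which hosts differed in transcription between the 2 lines. After a filter on low counts, 65 hosts (23 snoRNA, 42 microRNA) were tested in Bru-seq and 60 (23 and 37) with BruUV-seq added. No host passed edgeR's quasi-likelihood test at a Benjamini-Hochberg adjusted p under 0.05 in either clone. In Bru-seq 0 of 65 hosts passed in KO C22 and 0 of 65 in KO C28, against 0.00438% of all 22827 genes in each. With both assays 0 of 60 passed in KO C22 and 0 of 60 in KO C28, against 0.178% and 0.125% of 20819 genes. Between the clones, KO C28 against KO C22, 0 hosts passed in either fit and 0% of all genes did. At an unadjusted p under 0.05 there was 1 host in Bru-seq of KO C22 against WT, higher, beside 2.01% of all genes (1.24% higher, 0.767% lower). KO C28 against WT had 7 (6.28%), 4 higher (4.65%) and 3 lower (1.63%), and KO C28 against KO C22 had 2 (3.27%), 1 higher (1.77%) and 1 lower (1.5%). With both assays there were 6 hosts in KO C22 against WT (5.86%), 3 higher (3.2%) and 3 lower (2.66%), and 8 in KO C28 against WT (10.5%), 5 higher (7.55%) and 3 lower (2.91%). KO C28 against KO C22 had 4 (5.71%), 2 higher (2.96%) and 2 lower (2.75%). limma-voom also called 0 hosts in each, beside 0.211% of all genes in KO C22 against WT and 0.125% in KO C28 against WT with both assays and 0% in the others. DESeq2 called 0 in Bru-seq of KO C22 against WT, KO C28 against WT and KO C28 against KO C22, beside 0.399%, 0.898% and 0.232% of all genes, and with both assays 0 in KO C22 against WT (beside 1.67% of all genes), 4 in KO C28 against WT (beside 3.42% of all genes) and 1 in KO C28 against KO C22 (1.1%). Those 4 were MIR193BHG (lower) and MIR99AHG, MIR3681HG and MIR4300HG (higher), and MIR99AHG was also the 1 between the clones. With no filter on low counts edgeR called 0 hosts in Bru-seq of KO C22 against WT (0.11% of all genes), 1 in KO C28 against WT (0.486%) and 0 in KO C28 against KO C22 (0.0307%), and with both assays 1 (0.671%), 6 (2.72%) and 2 (0.568%). The common coefficient of variation between libraries was 79.3% in Bru-seq and 63.4% with both assays.

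Groups did not overlap for 20 of 65 hosts in KO C22 against WT in Bru-seq (29.3% of all genes), 10 higher (13.9%) and 10 lower (15.4%). They did not for 20 in KO C28 against WT (36.1%), 12 higher (18.6%) and 8 lower (17.6%), and for 20 in KO C28 against KO C22 (31.2%). The hosts' shares are near those of all genes. When each assay had to separate the lines, 17 of 60 hosts did so in KO C22 against WT (22.4%), 16 in KO C28 against WT (26.9%) and 12 in KO C28 against KO C22 (19%).

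The snoRNA hosts lay on the lower side in KO C22 and, depending on the libraries kept, in KO C28, without any call. Their median log2 fold change in KO C22 against WT was -0.74 in Bru-seq, with 3 of 23 above 0, beside 0.07 over all genes. With both assays it was -0.92, with 2 of 23 above 0, beside 0.02 over all genes. The BruUV-seq libraries alone, 1 a line and with 0.1 added to the CPM, gave a median of -0.99 for KO C22 over WT, with 20 of 23 below 0 (all genes -0.03, all genes under 10 kb -0.09). In KO C28 the median was -0.40 in Bru-seq, with 5 of 23 above 0 (all genes -0.08), -0.35 with both assays (-0.06) and -0.22 in BruUV-seq alone (0.01). Without KO C28 replicate 2 the KO C28 median with both assays was -0.15, with 6 of 23 above 0 (all genes -0.005). These comparisons share the WT libraries. The KO C22 median in Bru-seq ran between -1.49 and -0.26 when 1 Bru-seq library at a time was left out, the lowest without KO C22 replicate 1 and the highest without KO C22 replicate 2, and was -0.41 without WT replicate 1. The KO C28 median ran between -1.56 and -0.01, the lowest without KO C28 replicate 1 and the highest without WT replicate 1, and was -0.97 without WT replicate 2 and -0.02 without KO C28 replicate 2. The -0.01 stood beside 0.025 over all genes. The -0.02, with 9 of 23 above 0, stood beside -0.096 over all genes, so the snoRNA hosts were not the lower there. As a description of 1 list among many, this is no test.

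Individual snoRNA hosts with the lowest p-values in KO C22 were SNHG15 and SNHG8. SNHG15 (chr7:44983023-44986961, minus strand) stood at 11.4 and 5.82 in Bru-seq of KO C22, 11.2 and 5.50 in KO C28, and 18.5 and 14.3 in WT, and in BruUV-seq at 11.7 in KO C22, 21.8 in KO C28 and 37.8 in WT. Both clones lay below WT in each assay. With both assays its log2 fold change was -1.15 (SE 0.42, edgeR adjusted p = 0.642) in KO C22 and -0.90 (SE 0.42, adjusted p = 0.481) in KO C28, or -0.63 without KO C28 replicate 2. SNHG8 (chr4:118278709-118279823, plus strand, host of the H/ACA box snoRNA SNORA24) stood at 10.6 and 3.41 in Bru-seq of KO C22, 16.9 and 16.7 in KO C28, and 19.6 and 13.5 in WT. In BruUV-seq it stood at 17.0 in KO C22, 34.0 in KO C28 and 38.6 in WT, so KO C22 was the lowest in each assay and KO C28 was close to WT. Its log2 fold change with both assays was -1.22 (SE 0.47, edgeR adjusted p = 0.689) in KO C22 and -0.04 (SE 0.46, adjusted p = 0.977) in KO C28. SNHG16 and SNHG20 also had non-overlapping Bru-seq libraries in KO C22, with log2 fold changes of -0.97 (SE 0.66) and -0.94 (SE 0.92). In KO C28, SNHG21 and SNHG17 were the snoRNA hosts with the lowest fold changes among those with at least 100 mean reads and non-overlapping libraries, at -1.43 (SE 1.09) and -1.15 (SE 0.73). Without KO C28 replicate 2, which held the lowest value of both, they had -0.64 and -0.48.

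The microRNA hosts scattered to both sides. In Bru-seq their median log2 fold change was 0.67 in KO C22, with 29 of 42 above 0, and 0.32 in KO C28, with 25 of 42 above 0. These 42 include 16 hosts that were over 2 times the level outside genes in no library. The medians of the hosts above that line were not computed. With both assays the medians were 0.13 and 0.08. Single libraries turned the direction in Bru-seq: the KO C22 median was -0.73 without KO C22 replicate 1, and the KO C28 median was -0.57 without KO C28 replicate 1 and -0.03 without KO C28 replicate 2. After subtracting the level outside genes the medians were 0.18 in KO C22 and -0.47 in KO C28, and with limma-voom 0.09 and -0.13. MIR3142HG (chr5:160468268-160487426, plus strand), which carries miR-146a, a repressor of NF-kB signalling through IRAK1 and TRAF6, had the highest fold change in KO C22 among hosts with non-overlapping libraries. It stood at 5.67 and 2.48 in Bru-seq of KO C22, 1.26 and 0.0326 in KO C28, and 0.651 and 0.240 in WT, and in BruUV-seq at 0.662 in KO C22, 0.228 in KO C28 and 0.191 in WT. KO C22 was above WT in every library of each assay. The log2 fold change was 3.16 (SE 1.21, edgeR adjusted p = 1) in Bru-seq and 2.77 (SE 0.93, adjusted p = 0.55) with both assays.

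MIR193BHG (chr16:14302288-14331067, plus strand, host of miR-193b and miR-365a) lay lower in both clones. It stood at 0.563 and 0.366 in Bru-seq of KO C22, 0.224 and 0.143 in KO C28, and 0.931 and 0.679 in WT, and in BruUV-seq at 0.355 in KO C22, 0.381 in KO C28 and 1.29 in WT. No clone library reached a WT library of the same assay, though the 0.143 of KO C28 replicate 2 was close to the level outside genes there, 0.133. In KO C28 the log2 fold change was -2.20 (SE 0.74, edgeR adjusted p = 0.728) in Bru-seq, -1.91 without KO C28 replicate 2, and -1.98 (SE 0.48, adjusted p = 0.216) with both assays, the lowest p of any host between lines. Without KO C28 replicate 2 the log2 fold change with both assays was -1.75. In KO C22 it was -1.10 (SE 0.47, adjusted p = 0.798) with both assays. MIR137HG (chr1:97986740-98049863, minus strand, host of miR-137) lay higher in both clones. It stood at 0.505 and 0.901 in KO C22, 0.881 and 0.355 in KO C28, and 0.353 and 0.156 in WT, and in BruUV-seq at 0.276 in KO C22, 0.319 in KO C28 and 0.0969 in WT. The log2 fold change with both assays was 1.48 (SE 0.48, edgeR adjusted p = 0.508) in KO C22 and 1.43 (SE 0.48, adjusted p = 0.457) in KO C28. MIR181A1HG, at 1.84 (SE 1.00), and MIR4435-2HG, at 1.19 (SE 0.73), were also among the 5 highest fold changes in Bru-seq of KO C22 with at least 100 mean reads and non-overlapping libraries. By the same rule MIR9-3HG was on the lower side in KO C28, at -2.93 (SE 1.08), and MIR31HG at -1.13 (SE 1.14), and they had -2.403 and -0.461 without KO C28 replicate 2. MIR9-3HG was near the floor there, at 0.0589 and 0.0202 in Bru-seq of KO C28, where the level outside genes was 0.0362 and 0.133.

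**Figure D2:**
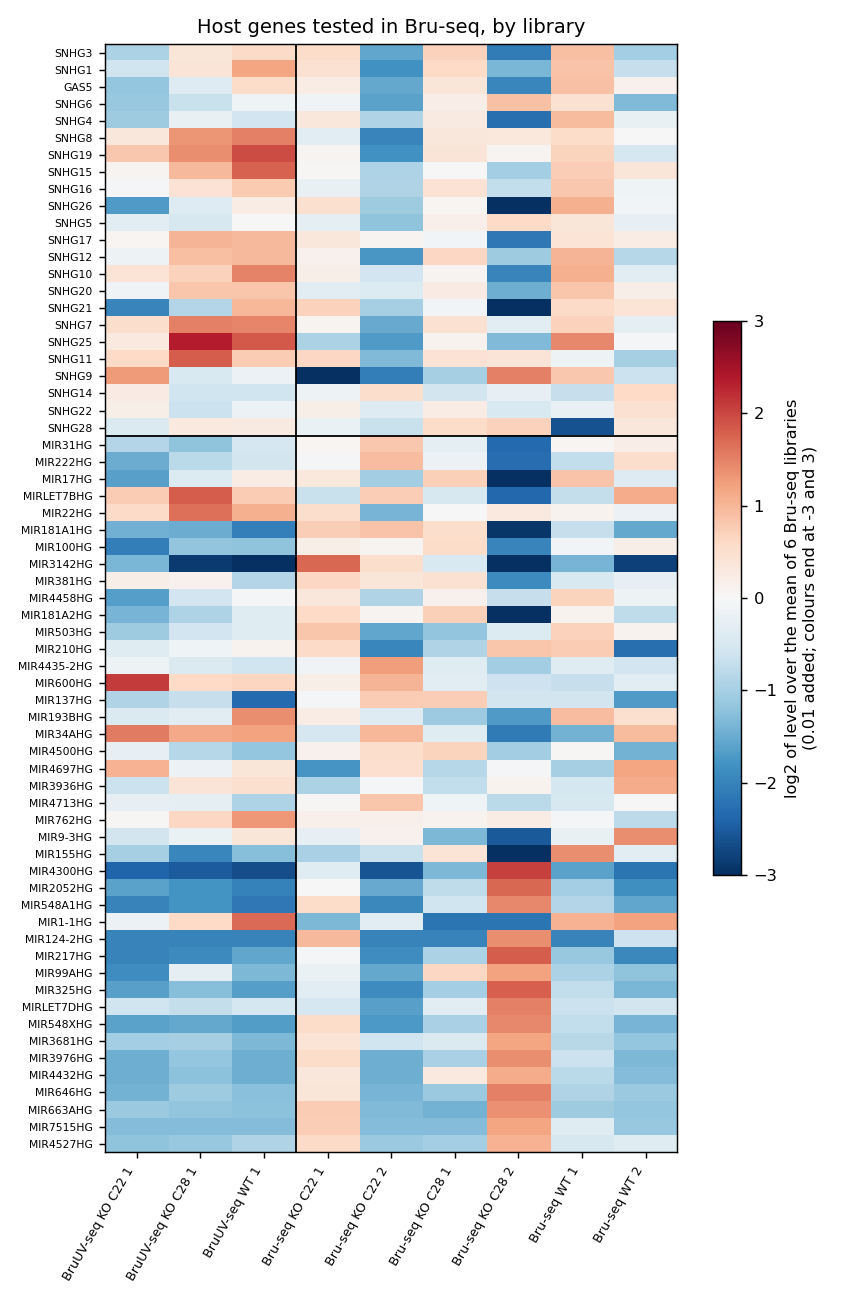
Rows are the 65 hosts tested in Bru-seq, 23 snoRNA hosts above the line and 42 microRNA hosts below it, each class by falling mean level, and columns are the 9 libraries, BruUV-seq first. Colour is the log2 of the level over the gene's mean in the 6 Bru-seq libraries after adding 0.01; KO C22 replicate 2 is pale to dark blue for most snoRNA hosts, and the lowest rows are red mainly in KO C28 replicate 2.

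The highest fold changes of KO C28 fell on long hosts that hardly rose above the level outside genes. MIR4300HG, a 524060-base gene, stood at 0.0158 and 0.260 in Bru-seq of KO C28 and at 0.0115 and 0.00446 in WT. The level outside genes in the same 4 libraries was 0.0362, 0.133, 0.0354 and 0.0376, so only KO C28 replicate 2 exceeded it. The log2 fold change of MIR4300HG was 3.95 (SE 1.51, edgeR adjusted p = 0.728) with that library and 0.94 without it. MIR2052HG, MIR548A1HG and MIR3681HG likewise had their highest level there, at 0.188, 0.127 and 0.0599, and MIR99AHG, whose RNA carries miR-99a and let-7c, at 0.0808. Of the 23 hosts with reads that stayed under 2 times the level outside genes in all libraries, 17 had their highest level in KO C28 replicate 2, and 16 such hosts were among the 65 tested. MIR99AHG is the exception among those named, since its log2 fold change was 2.77 (SE 0.88) with and 2.46 without that library, although its level in KO C28 replicate 1, 0.0511, was also under 2 times the level outside genes. MIR100HG, which carries miR-100, let-7a and miR-125b and spans 528392 bases, gives the level of a transcribed gene of that length. It stood at 1.94 and 1.83 in KO C22, 2.55 and 0.429 in KO C28, and 1.64 and 1.95 in WT.

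**Figure D3:**
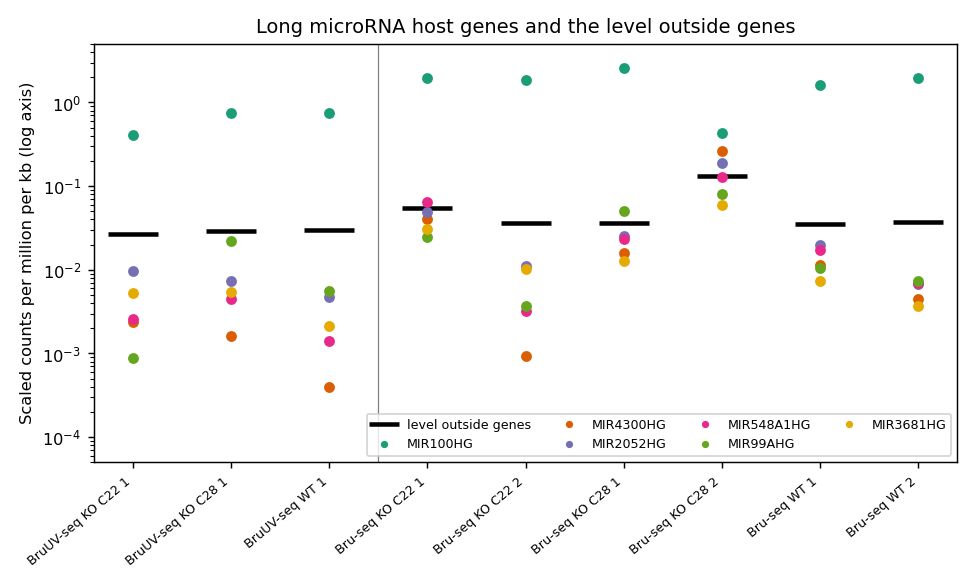
Points are levels of 6 long microRNA hosts in each library and black bars the level outside genes, in scaled CPM per kb on a log axis, BruUV-seq first. MIR100HG lies above the bar in all 9 libraries, whereas MIR4300HG and MIR2052HG exceed it only in Bru-seq KO C28 replicate 2.

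In all 3 lines replicate 2 lay below replicate 1 for most snoRNA hosts. Replicate 2 over replicate 1 had a median log2 of -1.23 in KO C22 (21 of 23 below 0), -1.16 in KO C28 (18 of 23) and -0.95 in WT (20 of 23), while the medians of all genes were -0.08, 0.01 and 0.00. SNHG1 had -2.26, -1.98 and -1.55 and SNHG3 -2.12, -2.78 and -1.91 in KO C22, KO C28 and WT. The median of the ribosomal protein genes was -0.88 in KO C22, 0.91 in KO C28 and -0.78 in WT. Gaps ran both ways in KO C28, where SNHG26 and MIR17HG had -4.77 and -4.99 and SNHG9 and SNHG6 had 2.06 and 0.68. WT replicate 1 was the highest Bru-seq library for 15 of 23 snoRNA hosts (10.4% of all genes), and KO C22 replicate 2 and KO C28 replicate 2 were the lowest for 10 each (20.1% and 36.6% of all genes). A gap of over 2-fold between replicates occurred in 52.2% of snoRNA hosts in KO C22, 60.9% in KO C28 and 52.2% in WT, beside 41.6%, 66.2% and 35.8% of all genes.

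**Figure D4:**
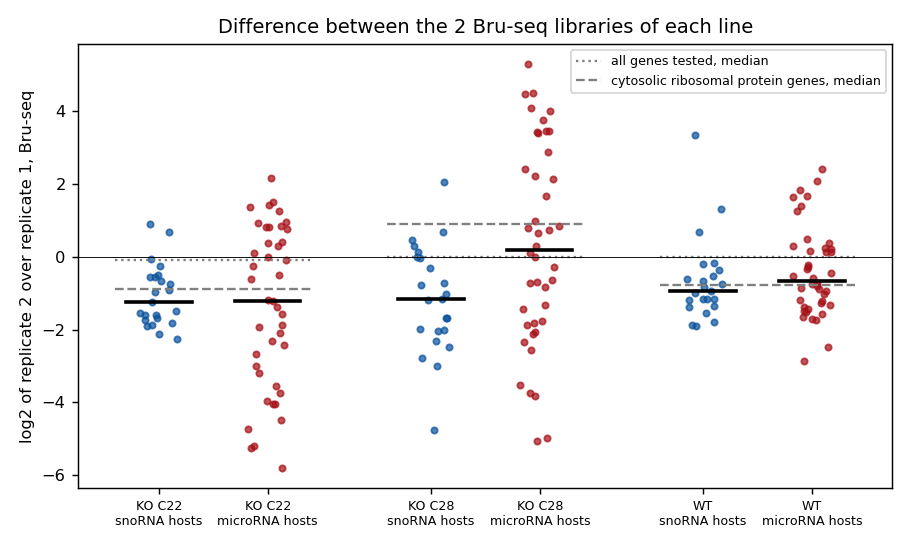
Points are tested hosts and the vertical axis is the log2 of Bru-seq replicate 2 over replicate 1 within each line; black bars are class medians and grey lines the medians of all genes and of ribosomal protein genes. The snoRNA host medians are -1.23 in KO C22, -1.16 in KO C28 and -0.95 in WT.

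The comparison of BruUV-seq with Bru-seq sets the summed reads of each host after UV light against those without it. In the fit over 9 libraries with line as a covariate, 0 of 60 hosts passed at an edgeR adjusted p under 0.05, against 0.447% of all genes. At an unadjusted p under 0.05 there were 21 hosts (25% of all genes), 9 higher (14%) and 12 lower (11.1%), limma-voom called 0 (3.07%), DESeq2 17, 5 higher and 12 lower (18.9%), and edgeR with no filter on low counts 13 (5.74%). Without Bru-seq KO C28 replicate 2, edgeR's adjusted p passed for 5 hosts, all lower (MIR100HG, MIR137HG, MIR181A1HG, MIR3142HG and MIR4300HG), beside 3305 of 21986 genes. Groups did not overlap for 3 hosts, all higher (13%). The snoRNA hosts had a median log2 fold change of 0.44, 15 of 23 above 0, and the microRNA hosts -0.73, 10 of 37 above 0, beside -0.03 over all genes. With an offset for length the snoRNA host median was -0.08 and that of the microRNA hosts -0.81. Direction went with gene length. Hosts under 10 kb had a median log2 fold change of 0.51, with 16 of 25 above 0, those of 10 to 100 kb -0.16, with 9 of 19 above 0, and those over 100 kb -1.88, with 0 of 16 above 0. All genes of the same classes had medians of 0.63, -0.03 and -0.92. The hosts over 100 kb include MIR4300HG, MIR325HG and others that stayed under 2 times the level outside genes in every library. Those above it in at least 8 libraries had -0.24 (MIR4435-2HG), -0.29 (SNHG14), -0.435 (MIR4713HG), -0.72 (MIR31HG), -0.73 (MIR4500HG), -1.43 (MIR181A1HG) and -1.46 (MIR100HG). Across genes, Spearman's rho with counted length was -0.629 over the 60 hosts, those near the level outside genes included, and -0.472 over all genes. The points share the same 9 libraries.

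On the higher side were short snoRNA hosts. SNHG19 (562 bases, host of SNORD60) stood at 22.2, 33.0 and 49.3 in BruUV-seq of KO C22, KO C28 and WT, against 13.3 and 3.61, 16.5 and 13.5, and 20.1 and 8.95 in Bru-seq of those lines. Each BruUV-seq library was above both Bru-seq libraries of its line, and the log2 fold change was 1.44 (SE 0.49, edgeR adjusted p = 0.129). SNHG7, SNHG8 and SNHG15 had 1.22 (SE 0.41), 1.17 (SE 0.39) and 1.03 (SE 0.35), with adjusted p = 0.127, 0.123 and 0.129 from edgeR, and DESeq2 called all 4. Not every short host followed: SNHG6 had -0.52 (SE 0.48) and SNHG3 0.04 (SE 0.65). Among microRNA hosts, MIR34AHG, whose miR-34a is a p53 target, had 1.47 (SE 0.57), MIRLET7BHG 1.40 (SE 0.66) and MIR600HG 1.24 (SE 0.49), although the first and second are 34382 and 27932 bases long. On the lower side MIR4300HG, MIR325HG, MIR2052HG, MIR3681HG and MIR99AHG had -4.46, -2.59, -2.19, -1.99 and -1.78, all of them hosts at under 2 times the level outside genes in every library. Among the long hosts that were clearly transcribed, MIR100HG stood at 0.404, 0.752 and 0.744 in BruUV-seq of KO C22, KO C28 and WT and had a log2 fold change of -1.46 (SE 0.57, edgeR adjusted p = 0.157). MIR181A1HG had -1.43 (SE 0.64, adjusted p = 0.192). Whether the effect of a clone differed between the assays was fitted as an interaction. Of 60 hosts 0 passed at an edgeR adjusted p under 0.05 in either clone, beside 0 of all 20819 genes. With 1 BruUV-seq library a line, this fit cannot decide whether the clone effects differ between the assays.

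Gene length also went with the fold changes between lines. Across the 60 hosts, those near the level outside genes included, Spearman's rho of length with the fold change of KO C22 over WT, both assays, was 0.623 (0.294 over all genes), and of KO C28 over WT 0.419 (0.145). In KO C28, hosts over 100 kb that stayed under 2 times that level in every library had 0.05 (MIR4527HG) to 3.68 (MIR4300HG). Those above it in at least 8 libraries had -0.94 (MIR31HG) to 0.67 (MIR181A1HG). Without KO C28 replicate 2, MIR4300HG had 1.255, MIR4527HG -2.35, MIR31HG -0.50 and MIR181A1HG 1.18. Among genes under 10 kb, the 18 snoRNA hosts had a median of -0.93 in KO C22, beside -0.14 over all genes, and -0.46 in KO C28, beside -0.02. The part of gene length in the snoRNA host medians was not tested. With an offset for the trend of counts with length in each library, the KO C22 median of the snoRNA hosts was -0.73 with both assays, and that of KO C28 -0.34. The KO C28 values of rho, of hosts under 10 kb and with the offset were not computed without KO C28 replicate 2.

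**Figure D5:**
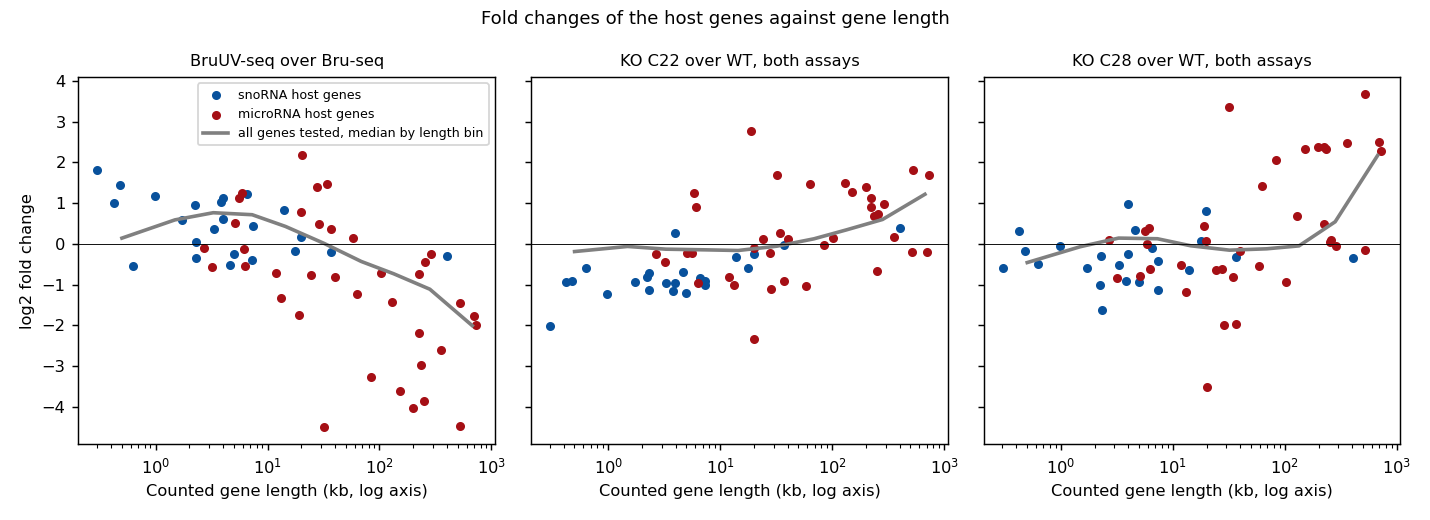
Points are the hosts tested with both assays, with counted gene length in kb on a log axis against the log2 fold change, and the grey line is the median of all genes by length bin. BruUV-seq over Bru-seq is lower in longer genes, with 0 of 16 hosts over 100 kb above 0, and in KO C22 over WT 1 of 18 snoRNA hosts under 10 kb lies above 0.

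No gene of the lists for these pathways passed the test between a clone and WT, apart from genes that hold a small RNA by position, given last. Of the snoRNP proteins and assembly factors, which bind and build snoRNAs, 0 of 19 passed with both assays in either clone, with medians of -0.09 in KO C22 and -0.26 in KO C28. ZNHIT3 had -0.82 in KO C22, and NHP2 had 1.08 in KO C28, or 0.31 without KO C28 replicate 2. Of the microRNA processing and effector genes, 0 of 17 passed, with medians of 0.07 in KO C22 and -0.41 in KO C28, the second at -0.10 without KO C28 replicate 2. LIN28B, which blocks let-7 maturation, had a log2 fold change of -3.72 (SE 0.67, edgeR adjusted p = 0.0638) in KO C22 and -0.52 (SE 0.60, adjusted p = 0.774) in KO C28, and DGCR8 had 0.56 in KO C22. Of the nonsense-mediated decay factors 0 of 14 passed (medians 0.18 and -0.12, the second at 0.05 without KO C28 replicate 2), and of the translation factors with a 5′ pyrimidine tract 0 of 18 (0.02 and 0.10). Of 78 tested ribosomal protein genes 0 passed in either clone, with medians of -0.51 in KO C22, 12 above 0, and 0.33 in KO C28, 56 above 0. Without KO C28 replicate 2 the KO C28 median was -0.11, with 24 above 0. Of the transcription factors known to act on host genes 0 of 9 passed (medians 0.06 in KO C22 and -0.30 in KO C28). MYC, a known activator of MIR17HG, had -0.51 (SE 0.36) in KO C22, and EPAS1, a hypoxia factor, -2.28 (SE 0.77, edgeR adjusted p = 0.457) in KO C28. Genes that hold a snoRNA by position but are not named as hosts had medians of -0.02 in KO C22 and -0.11 in KO C28 over 237 genes, 0 and 1 of which passed. Of 802 genes that hold a microRNA by position, 4 passed in KO C22 (3 higher, 1 lower) and 2 in KO C28 (1 each way), with medians of 0.16 and 0.04. Over all genes of the same fits, 0.178% passed in KO C22 and 0.125% in KO C28.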

How the data were processed

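Nascent RNA of PANC-1 cells was measured in 9 libraries, 6 of Bru-seq and 3 of BruUV-seq. The authors deposited 1 gene table per library with expected counts and RPKM values, both per gene body. Per the submitters' processing notes, CASAVA 1.8.2, Bowtie2 2.3.3, STAR 2.5.3a and bedtools 2.16.2 were used with builds hg38 and GRCh38, without stated roles; the annotation release is not given in these sources. Of 1378 microRNA symbols shared with RefSeq on GRCh38.p14, 1292 had the same coordinates. Library totals and the density outside genes were computed from the counts and RPKM.

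Expected counts were rounded and tested with edgeR 4.0.16 (quasi-likelihood test, filterByExpr, TMM, Benjamini-Hochberg over all genes tested; R 4.3.3). The Bru-seq fit used 6 libraries and line; the joint fit used 9 libraries, line and assay. Alternatives were RLE factors, no filter, DESeq2 1.42.0, limma-voom 3.58.1, a length offset, background subtraction, a replicate block and leaving out each library; levels were also taken from the deposited RPKM. Depth was 5.64 M to 31.1 M reads in genes, in units of 10 to the power 6. Intervals for counting error are not given, since the spread between libraries was wider. The methods were tested on simulated data. Beyond KDM6A, genes are named by rule: any called host, the 15 highest by mean RPKM, for each clone in Bru-seq the 5 highest and 5 lowest fold changes among hosts with at least 100 mean reads in the higher line and non-overlapping libraries, the 5 highest and 5 lowest for BruUV-seq against Bru-seq, and up to 4 members of each list with the smallest p. Others are named where position, sequence, length, level or an unadjusted p called for it, after their values were seen. Replicate numbers were not taken to pair samples, since residuals of same-numbered libraries, over all genes, correlated at 0.427 for WT and KO C22, 0.004 for WT and KO C28 and -0.479 for KO C22 and KO C28. For most snoRNA hosts, however, replicate 2 lay below replicate 1 in every line. With the replicate block and both assays the snoRNA host median was -0.89 in KO C22 and -0.44 in KO C28 against WT. The host genes and all lists were chosen with earlier results of these data known.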

Additional observations from a re-analysis of the deposited data

How the results depend on the processing

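The count of hosts that passed edgeR's test was 0 in all 7 comparisons, and in 91 of 104 recomputations with other settings it stayed there. Without a filter on low counts it was 1 (MIR4300HG) in Bru-seq for KO C28 against WT, and with both assays 1 (MIR3142HG) for KO C22 against WT, 6 (5 higher, 1 lower) for KO C28 against WT, 2 for KO C28 against KO C22 and 13 (2 higher, 11 lower) for BruUV-seq against Bru-seq; more genes are tested then. DESeq2 gave 4, 1 and 17 in the last 3 of these. Leaving out 1 library gave 0 to 1 hosts in Bru-seq for KO C28 against WT (1, MIR4300HG, without KO C22 replicate 1 or without replicate 2, beside 148 of 25015 and 179 of 25535 genes), 0 to 2 for KO C28 against KO C22 (2, MIR325HG and MIR4300HG, without KO C22 replicate 1, beside 186 of 25015 genes) and 0 to 5 for BruUV-seq against Bru-seq (2 without Bru-seq KO C22 replicate 2, beside 494 of 23136 genes, and 5 without Bru-seq KO C28 replicate 2, beside 3305 of 21986). RLE factors, limma-voom, the length offset, background subtraction and a replicate block gave 0 throughout; with the replicate block 0 hosts passed in each comparison, and the cause of the differences between settings was not tested. Over all genes, calls for BruUV-seq against Bru-seq numbered 93 as reported, 0 with the length offset or background subtraction, 1 with RLE, 158 without line as a covariate, 640 with limma-voom, 903 with the block, 2326 without a filter and 3941 with DESeq2. For KO C22 and KO C28 against WT with both assays they numbered 37 and 26 as reported, 2 and 7 after background subtraction, 348 and 711 with DESeq2, and 272 and 1100 without a filter, and KO C28 had 49 with the block. In Bru-seq both had 1 as reported, 91 and 205 with DESeq2, 43 and 190 without a filter, and 0 with limma-voom, background subtraction or the block. Leaving out 1 library at a time, calls over all genes ran from 0 to 3305 for BruUV-seq against Bru-seq. With both assays they ran from 3 to 142 for KO C22 against WT, 1 to 67 for KO C28 against WT and 0 to 18 for KO C28 against KO C22, and in Bru-seq from 0 to 22, 0 to 179 and 0 to 186. None of the fold changes picked by the naming rule, in the comparison that picked them, changed sign under these settings. Of 434 recomputed values, 20 passed where the reported one did not. The 434 include levels of the 15 hosts highest by RPKM, which carry no test. RLE factors moved the median of all genes in KO C28 against WT in Bru-seq to 0.00 from -0.08, and the length offset moved the snoRNA host median of BruUV-seq against Bru-seq to -0.08 from 0.44. Precision is limited by 1 or 2 libraries a group, by the depth of Bru-seq KO C28 replicate 2, and by short hosts with few reads, such as SNHG25 with 2 to 58 reads a library.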
